A study of Canis lupus familiaris with 18 samples.

Results

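The regions described here are stretches of the dog genome at which *E2F1* *ChIP-seq* gave a peak in all 3 derived dogs and in no ancestral dog. *E2F1* peaks of 6 dogs on chromosomes 1 to 38 were merged wherever they overlapped or touched, which gave 512222 regions in the CanFam3.1 build. Of these, 895 met the rule (0.175% of the regions) and are called derived-only regions. The members were thus selected on the presence of *E2F1* peaks in the 6 dogs, so the number, width, strength and position of these regions are given as descriptions without a test. Tests were made only on *H3K27ac*, which comes from a separate immunoprecipitation.

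The tissue was brainstem by its labels, dissected as the pons, of 6 old male dogs aged 12 to 16 years. Derived dogs 1 to 3 were labelled noins at the Cfa6.66 locus, which means that both alleles lack the transposable element (TE) in *GTF2I*. Ancestral dogs 1 to 3 were labelled ins and were heterozygous, with the insertion on 1 allele. No treatment is named for either group. The animals were companion dogs, mostly of mixed breed, and they also varied at other typed TE insertions, so genotype at Cfa6.66, ancestry and those insertions cannot be told apart with 3 dogs against 3. The tissue label could not be checked against marker genes, because peak lists give no expression and no CanFam3.1 gene models were used here.

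*E2F1* is a transcription factor of the E2F family that binds DNA at the promoters of cell cycle and DNA replication genes and acts with a DP partner protein. The retinoblastoma protein holds it inactive until it is phosphorylated, and in postmitotic neurons *E2F1* is known for its links to DNA damage and cell death. *H3K27ac* is the acetylation of lysine 27 on histone H3, a mark found at active promoters and enhancers. A peak is a stretch in which reads from the immunoprecipitation exceed the local background, so the lists say where a signal passed a threshold in a dog, and a dog without a peak has no value at that place.

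Depth and list length differed between the dogs. For *E2F1* the unique read pairs numbered 9663083, 10422165 and 8858446 for the ancestral dogs numbered 1 to 3, while the derived dogs had 14555258, 16383452 and 8066322. The *E2F1* lists held 86634, 84014 and 130535 peaks on these chromosomes for ancestral dogs, and for derived dogs 107268, 160157 and 115998. Ancestral dogs averaged 100394 ± 26135 peaks (SD, n = 3) and derived dogs 127808 ± 28353 (SD, n = 3), and the ranges overlapped. Derived dog 2 had the deepest library and the longest list, while derived dog 3 had the shallowest library of the 6. The part of depth in the number of derived-only regions was not tested. With lists shortened to equal length, 405 of 381047 regions (0.106%) were derived-only and 641 were ancestral-only. Without counts at loci that lack a peak, no interval or detection limit can be given for a missing peak.

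Most *E2F1* regions were seen in few dogs. Of the 512222 regions, 410138 (80.1%) were called in 1 dog, 68500 in 2, 18510 in 3, 7802 in 4, 4501 in 5 and 2771 in all 6 dogs. The regions called in all 6 dogs are called recurrent sites below. Among the 18510 regions called in exactly 3 dogs, 895 were derived-only, 561 were ancestral-only (0.11% of the regions) and 17054 held peaks of both genotypes. Derived-only regions held 0.846%, 0.566% and 0.784% of the peaks of derived dogs 1 to 3.

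The rule can be applied to any 3 of the 6 dogs, which gives 20 sets of 3 dogs. The 895 derived-only regions ranked 6th among these 20 sets, and the 561 ancestral-only regions ranked 13th. Over the 18 sets of mixed genotype the number ran from 331 for ancestral dogs 1 and 2 with derived dog 3 to 2934 for ancestral dogs 2 and 3 with derived dog 2, with a median of 785.5. Each of the 5 sets above the derived-only count held derived dog 2. Those were ancestral dogs 2 and 3 (2934 regions), ancestral dog 3 with derived dog 3 (2096 regions), ancestral dogs 1 and 3 (1595 regions), ancestral dog 3 with derived dog 1 (1584 regions), and ancestral dog 2 with derived dog 3 (1103 regions).

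The 20 sets form 10 splits of the dogs into 3 and 3. Summing both sides, the split by genotype gave 1456 regions and ranked 8th of 10, against 1371 to 3292 over the 10 splits. The larger side was 1.60 times the smaller in the split by genotype, which ranked 7th, and this ratio ran from 1.01 to 8.20 over the splits. The derived-only count therefore lay inside the range of the other 9 splits. The split values share the same 6 lists and are a description only.

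**Figure D1:**
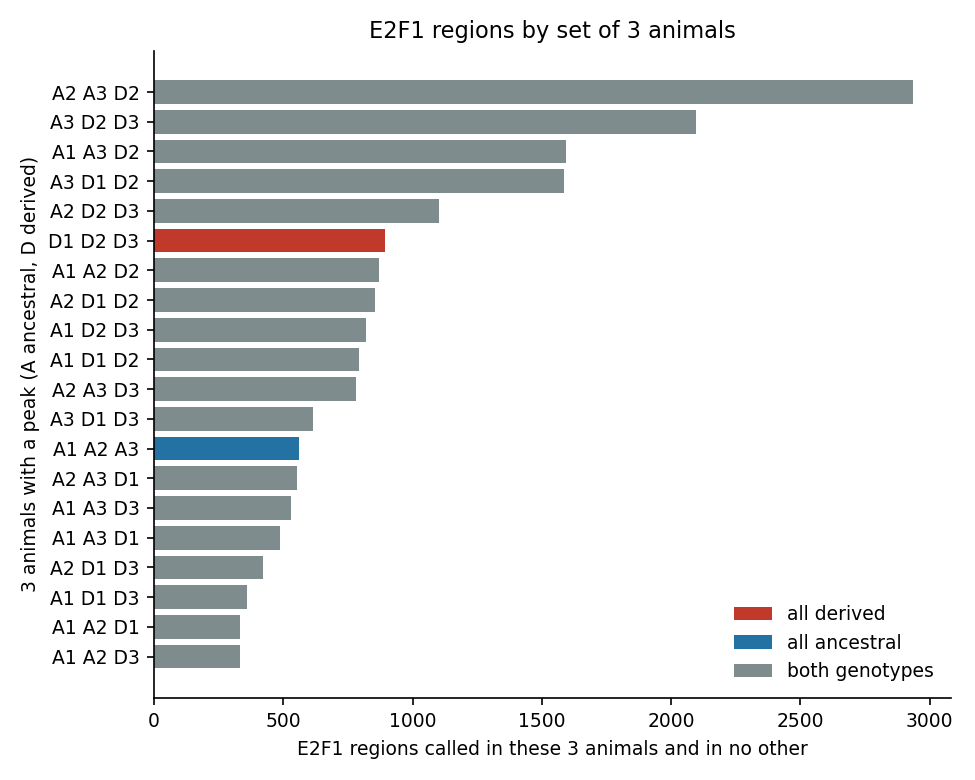
Number of merged E2F1 regions called in exactly the 3 dogs named (A for ancestral, D for derived) and in no other dog, for each of the 20 sets of 3 dogs, as bars on a linear axis from 0. The derived-only set, at 895 regions, was below 5 mixed sets that all include derived dog 2, and the ancestral-only set was at 561 regions.

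The strongest derived-only region lay on chromosome 23, from 44903835 to 44904022, and was the narrowest of the 895 at 188 bp. Its fold enrichment over local background was 11338 in derived dog 1, 20579 in derived dog 2 and 8600 in derived dog 3. These were above 99.9% of the peaks in each of the 3 lists. The peaks of the 3 dogs coincided almost exactly, with 185 bases in common. *H3K27ac* was also called here in ancestral dog 2, with a fold enrichment of 225, and in derived dog 1, with a fold enrichment of 722, and it was not called in the other 4 dogs. The nearest *E2F1* peak of an ancestral dog was 792 bases away. The input libraries of this locus were not analysed here, so whether input DNA is enriched at it was not tested.

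Strength was ranked by q within each list, and a region was placed by the lowest of its 3 percentiles. After chromosome 23, the region on chromosome 30 from 5074398 to 5074597 had fold enrichments of 8.11, 4.12 and 6.75 in derived dogs 1 to 3, with 162 bases common to the 3 peaks. It had no *H3K27ac* peak in any dog, and its nearest ancestral *E2F1* peak was 5797 bases away. A region on chromosome 31, from 37505252 to 37506246, had fold enrichments of 9.44, 6.89 and 6.81. Here no base was covered in all 3 dogs, so peaks of neighbouring position were joined into a region of 995 bp. A second region on chromosome 31, from 39348246 to 39348909, had fold enrichments of 4.12, 6.12 and 11.3, above 95.2%, 93.1% and 99.7% of the peaks of the 3 lists.

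On chromosome 7, the region from 65114888 to 65116784 was 1897 bp wide and had fold enrichments of 6.29, 6.71 and 6.13. *H3K27ac* peaks of all 6 dogs overlapped it, which were 6621 to 12425 bp wide, and the peak of derived dog 2 began inside the region, at 65115154. On chromosome 13, the region from 37756523 to 37757643 had fold enrichments of 6.81, 5.91 and 6.21 and no *H3K27ac* peak in any dog. The region on chromosome 2 from 24913067 to 24913292 had fold enrichments of 5.91, 5.11 and 8.73 and no *H3K27ac* peak in any dog. A region close to the start of chromosome 20, from 9267 to 9497, had low fold enrichments of 2.63, 1.76 and 2.23 but a high rank by q, and it lay 2648 bases from a recurrent site. On chromosome 6, the region from 16003741 to 16004153 lay in an *H3K27ac* peak of derived dog 2 alone, and that peak was 43966 bp wide. Of the 10 regions with the highest lowest percentile, which ran from 87.3 to just under 100, 6 had no *H3K27ac* peak in any dog and 2 had one in all 6. The shares were 39.4% and 29.4% over the derived-only regions, and 53.6% and 18.8% over all *E2F1* regions.

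At the other end were 3 regions tied at the lowest percentile, each set by a peak of derived dog 1 with a −log10 q of 1.31. On chromosome 24, from 26898552 to 26898876, the fold enrichments in derived dogs 1 to 3 were 2.92, 3.66 and 4.76. On chromosome 12, from 12501328 to 12501888, they were 2.92, 3.76 and 3.22, and an ancestral *E2F1* peak lay 136 bases away. On chromosome 30, from 10417847 to 10418072, they were 2.92, 2.95 and 3.11. In none of the 3 did an *H3K27ac* peak overlap the region, although on chromosome 12 one lay 39 bases away.

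Peaks in derived-only regions were of about the strength usual for their lists. Among them the fold enrichment had a median of 3.96, 3.94 and 4.08 for derived dogs 1 to 3, against 3.90, 3.94 and 3.98 over all peaks of the same lists. Their median percentile by q was 53.9, 56.5 and 50.3. The median peak width was 248.5, 287 and 245 bp in the members, and 229, 257 and 233 bp over the lists.

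The deposited lists reach down to a q of 0.05, and the weakest of the 3 derived peaks was often near that floor. The lowest of the 3 −log10 q values ran down to 1.31, with a median of 1.92, and it was below 2 in 546 regions (61.0%). The paper cautions that some *E2F1* sites may be missed, because the cross-correlation scores of its *E2F1* data were low. The study's methods set a stricter threshold for *E2F1*, to offset tracks that were noisier than usual. At that threshold, a q below 0.0005, 218 regions (24.4%) kept their peak in derived dog 1, 408 (45.6%) in derived dog 2 and 318 (35.5%) in derived dog 3. Over all single peaks of the same 3 lists the shares were 17.7%, 39.5% and 30.6%. These shares count peaks, while those of the members count regions, which can hold more than 1 peak of a dog. All 3 derived peaks passed in 46 regions (5.14%), 2 passed in 205, 1 in 396 and none in 248 (27.7%). Ranked within each list, the peak of lowest percentile belonged to derived dog 1 in 298 regions, to derived dog 2 in 292 and to derived dog 3 in 305.

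Just outside the rule were 1055 regions with peaks in all 3 derived dogs and in 1 ancestral dog. That ancestral dog was dog 1 in 213, dog 2 in 264 and dog 3 in 578 regions. The lowest of the 3 derived peaks had a median −log10 q of 2.07 in these regions, against 1.92 in the derived-only regions. For the 1 ancestral peak the median −log10 q in its own list was 3.65, and 129 (12.2%) were below 2. A further 17145 regions had peaks in 2 derived dogs and in no ancestral dog. Ancestral dog 3, which had the longest ancestral list, thus removed more candidates than ancestral dogs 1 and 2 together.

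Ancestral dogs often had an *E2F1* peak elsewhere in the surroundings. The nearest ancestral *E2F1* peak was a median of 952 bases from a derived-only region, with quartiles of 343.5 and 2304.5 and a range of 3 to 48482. Within 100 bases an ancestral peak was found for 76 regions (8.49%), within 1000 bases for 459 (51.3%) and within 10000 bases for 856 (95.6%). For the 257870 regions with no ancestral peak the median was 1852 bases, and 4.71%, 34.2% and 88.9% lay within these limits. In the 18 mixed sets, the distance to the nearest peak of the 3 dogs outside the set had medians of 681.5 to 1141.5 bases, with 46.1% to 61.6% of regions within 1000 bases, and the derived-only values lay inside these ranges. The nearest one belonged to ancestral dog 3 in 451 regions, to dog 2 in 233 and to dog 1 in 211. Of the 25 regions named here, the closest was the region on chromosome 18 from 45486479 to 45488431, with an ancestral peak 20 bases away. It was 1953 bp wide, was merged from 5 peaks, and 59 of its bases were covered in all 3 derived dogs.

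Derived-only regions had a median width of 547 bp (95% confidence interval from order statistics 529 to 564, covering the sampling of regions only), with quartiles of 430.5 and 708 and a range of 188 to 2308 bp. Together they covered 532.8 kb. The median was 599 bp for ancestral-only regions and 594 bp for the mixed regions called in 3 dogs, while it was 258 bp over all regions and 1349 bp at recurrent sites. Width follows the number of peaks merged, so the sets of 3 dogs are the like comparison, and in the 18 mixed sets the median ran from 461 to 682 bp. A width of at least 1 kb was reached by 52 derived-only regions (5.81%) and by 10.5% of the mixed regions.

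Merging by overlap can join peaks that do not share a base in all dogs. At least 1 base was covered by peaks of all 3 derived dogs in 554 regions (61.9%), with a median of 106.5 shared bases. The same held for 70.6% of ancestral-only regions and 68.5% of mixed regions, and in the 18 mixed sets the share ran from 62.7% to 76.8%. The derived-only share was thus just under the lowest of the mixed sets. The widest region, on chromosome 10 from 1288329 to 1290636, was 2308 bp and had no base covered in all 3 dogs. Its fold enrichments were 3.96, 5.02 and 7.49, and an ancestral *E2F1* peak was 42 bases away. It lay within *H3K27ac* peaks of 5 dogs, while ancestral dog 2 had separate peaks over its ends, one up to 1288944 and one from 1290237.

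**Figure D2:**
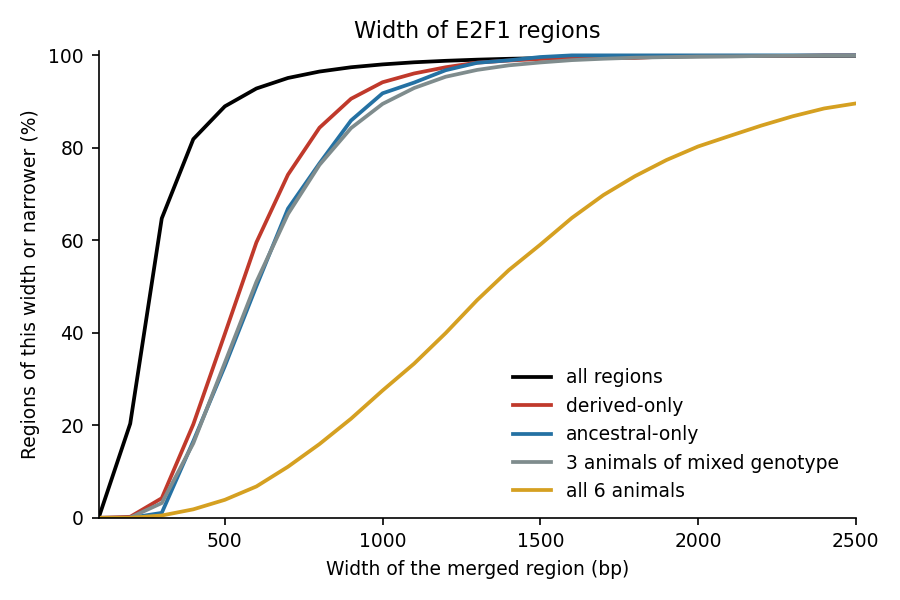
Cumulative share of regions, in percent, against region width in base pairs on a linear axis, 1 line for each kind of region. The lines for derived-only, ancestral-only and mixed regions, with medians of 547, 599 and 594 bp, lie between all regions at 258 bp and regions called in all 6 dogs at 1349 bp.

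All 38 autosomes held derived-only regions, at 4.06 regions per 10 Mb, with each autosome measured to its last *E2F1* region. Chromosome 9 had the most, with 69 regions or 11.3 per 10 Mb. Chromosomes 2, 5, 1, 20 and 6 followed, with 64, 58, 54, 52 and 42 regions. These 6 chromosomes held 339 (37.9%) of the derived-only regions and 35.0% of the mixed regions on 22.4% of the sequence. Chromosome 32 held 2 regions, or 0.515 per 10 Mb, and chromosome 38 held 3, or 1.25 per 10 Mb.

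The distribution followed that of other *E2F1* regions called in 3 dogs. For every 100 mixed regions there were 5.25 derived-only regions over the 38 chromosomes, with a lowest value of 1.44 on chromosome 38 and a highest of 7.24 on chromosome 19. Over the 38 chromosomes, the number of derived-only regions and the number of mixed regions had a Pearson's r of 0.972, and their densities per Mb had a Spearman's rho of 0.796. These are descriptions, since both numbers come from the same 6 lists and share chromosome length and base composition. Chromosome 9 had 2.70 derived-only regions per 1000 *E2F1* regions, against 1.75 over all autosomes.

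Along the chromosomes, cut into 10 parts of equal length, 92 derived-only regions (10.3%) lay in the first part, 61 (6.82%) in the third and 128 (14.3%) in the last. The mixed regions had 12.2%, 7.44% and 14.2% in the same parts. The first Mb of the chromosomes held 25 derived-only regions (2.79%), 2.52% of the mixed and 2.13% of all regions. Neighbouring derived-only regions were a median of 867338 bases apart over 857 pairs, and 15 pairs lay within 10 kb and 105 within 100 kb of each other. The closest pair was 436 bases apart.

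**Figure D3:**
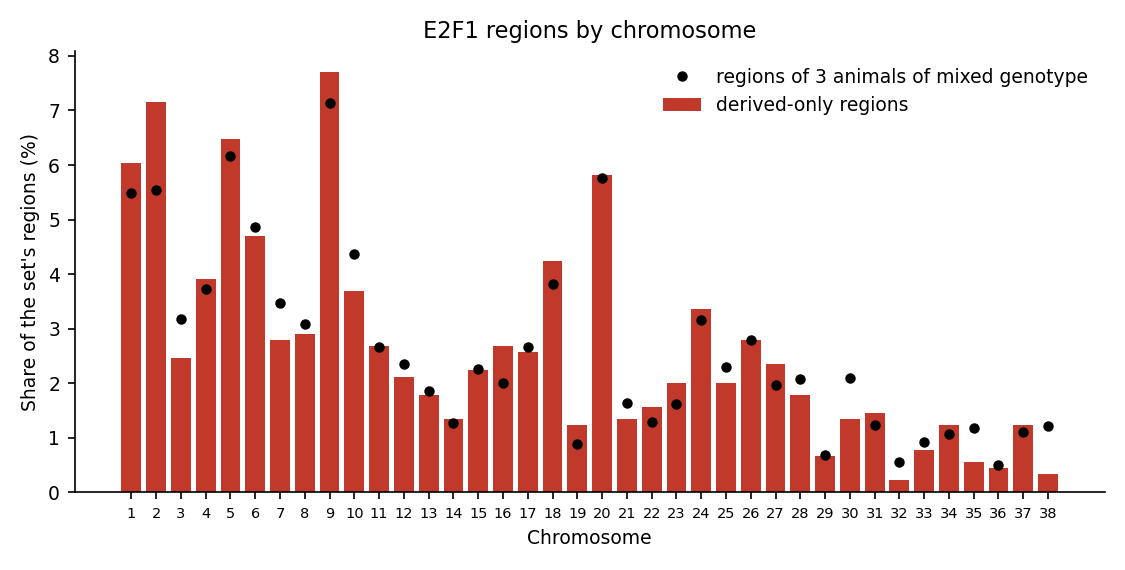
Share of the derived-only regions (bars) and of the mixed regions called in 3 dogs (points) that lies on each of the 38 autosomes, in percent of each kind. Chromosome 9 held the highest share of both, with 7.71% of derived-only and 7.13% of mixed regions, and chromosome 32 the lowest share of derived-only regions at 0.223%.

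*H3K27ac* was asked of the same 895 regions in every dog, as the share that overlapped a broad *H3K27ac* peak by at least 1 base. It was present at 437 regions (48.8%) in ancestral dog 1, 338 (37.8%) in dog 2 and 386 (43.1%) in dog 3. In the derived dogs it was present at 384 (42.9%), 440 (49.2%) and 387 (43.2%). The groups overlapped, with the lowest value in ancestral dog 2 and the highest in derived dog 2. Ancestral dogs averaged 43.2% ± 5.53 (SD, n = 3) and derived dogs 45.1% ± 3.52 (SD, n = 3). Their difference of 1.86 percentage points did not exceed the spread among dogs (two-sided exact permutation p = 0.6, where 3 dogs against 3 cannot give less than 0.1). With ancestral dog 2 also left out of the selection, 1153 of 471541 regions (0.245%) were derived-only, and the difference over them was −0.853 points.

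The *H3K27ac* lists themselves differ in breadth. Over all 512222 *E2F1* regions the share was 35.6%, 25.6% and 29.2% for ancestral dogs and 30.9%, 32.5% and 30.6% for derived dogs, so ancestral dog 2 was lowest there too. *H3K27ac* depth was 27201745, 30310806 and 33236586 unique read pairs for ancestral dogs and 30512655, 34334861 and 25349234 for derived dogs. With the share over all regions subtracted in each list, derived-only regions stood 13.1 points above it in ancestral dogs and 13.8 points above it in derived dogs. The difference between genotypes was then 0.658 points (two-sided exact permutation p = 0.9, n = 3 per genotype).

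Region by region, the patterns of the mark over the dogs were as follows. It was called in all 3 derived and no ancestral dog at 2 of the 895 regions (0.223%), against 0.211% of all *E2F1* regions. The opposite pattern, all 3 ancestral and no derived dog, was also seen at 2 regions, against 0.102% of all regions. The mark was called in more derived than ancestral dogs at 129 regions (14.4%), where the background was 12.1%. It was called in more ancestral than derived dogs at 93 regions (10.4%, background 9.58%), and in as many of each at 673 (75.2%, against 78.4% of all regions). All regions are read in the same 6 *H3K27ac* lists, so these shares are descriptions with no interval or test.

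The 4 regions split by genotype in both marks can be named. With *H3K27ac* in the derived dogs only, the region on chromosome 2 from 81932482 to 81932831 had *E2F1* fold enrichments of 5.27, 5.49 and 3.40, and its nearest ancestral *E2F1* peak was 1197 bases away. The other, on chromosome 1 from 47543677 to 47544241, had fold enrichments of 3.15, 4.43 and 3.39, with no base covered in all 3 dogs. It lay in an *H3K27ac* peak of derived dog 1 that was 63064 bp wide. With *H3K27ac* in the ancestral dogs only were a region on chromosome 1 from 15050187 to 15051002, with fold enrichments of 3.96, 3.94 and 9.01, and one on chromosome 17 from 30759811 to 30760533, with fold enrichments of 3.95, 3.76 and 3.94. At the first of these an ancestral *E2F1* peak lay 75 bases away.

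The number of dogs with *H3K27ac* at a region was mostly none or all. Of the derived-only regions, 353 (39.4%) had the mark in no dog and 263 (29.4%) had it in all 6. The regions with 1, 2, 3, 4 and 5 dogs numbered 76, 58, 41, 41 and 63. Over all *E2F1* regions the share with no dog was 53.6% and that with all 6 was 18.8%. Among mixed regions these were 28.9% and 44.6%, and among ancestral-only regions 26.2% and 52.4%.

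Set against mixed regions, derived-only regions carried *H3K27ac* less often in all 6 lists. Mixed regions overlapped the mark at 61.6%, 51.3% and 57.3% for ancestral dogs and 56.9%, 62.3% and 56.5% for derived dogs. The mean difference was −13.5 ± 0.538 percentage points (SD, n = 6 lists; two-sided exact sign-flip permutation p = 0.031, the smallest that 6 lists can give). The test covers only the spread between *H3K27ac* lists read on the same regions. Pooling lets the largest mixed sets weigh most, and with the 18 mixed sets weighted equally the difference was −8.16 points. Ancestral-only regions had shares of 66.3%, 58.6% and 62.7% in the ancestral and 62.2%, 64.7% and 62.4% in the derived dogs, so derived-only regions were 18.7 ± 1.88 points lower (SD, n = 6 lists, no test). With 1 derived dog left out the rule needs only 2 derived dogs, so the regions were selected again. The difference from mixed regions was then −4.47 points over 7615 derived-only regions (1.72% of 442781) without derived dog 1. It was −7.83 points over 7390 derived-only regions (1.68% of 439944) without derived dog 3.

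The size of this difference depended on which mixed sets were compared, a choice made after the data were seen. It was −14.9 points against the 9 mixed sets that include derived dog 2 and −6.14 against the 9 that include derived dog 3, each set weighted equally. *E2F1* regions of derived dog 1 overlapped *H3K27ac* at 28.4% as a mean of the 6 lists, the lowest of the dogs, against 36.1%, 45.1% and 38.6% for the 3 ancestral dogs and 40.3% and 32.7% for derived dogs 2 and 3. The 9 mixed sets that include derived dog 1 had shares of 33.8% to 55.3%, with a median of 43.6%, and the 9 without it had 51.3% to 72.9%, with a median of 60.4%. Derived-only regions, which include derived dog 1 by the rule, had a mean of 44.2% ± 4.27 (SD, n = 6 lists). The cause of the difference from mixed regions was not tested. Against the 9 mixed sets with derived dog 1, each weighted equally, the difference was −0.369 points (two-sided exact sign-flip permutation p = 0.4375, n = 6). That average joins sets on both sides of the derived-only share, and its p covers only the spread between lists read on the same regions. A large p here therefore does not show that the shares are equal. Sets with derived dogs 1 and 2 had 45.3%, 51.6% and 55.3%, and those with derived dogs 1 and 3 had 33.8%, 36.4% and 43.6%. Sets of derived dog 1 with 2 ancestral dogs had 39.9%, 41.8% and 53.3%.

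**Figure D4:**
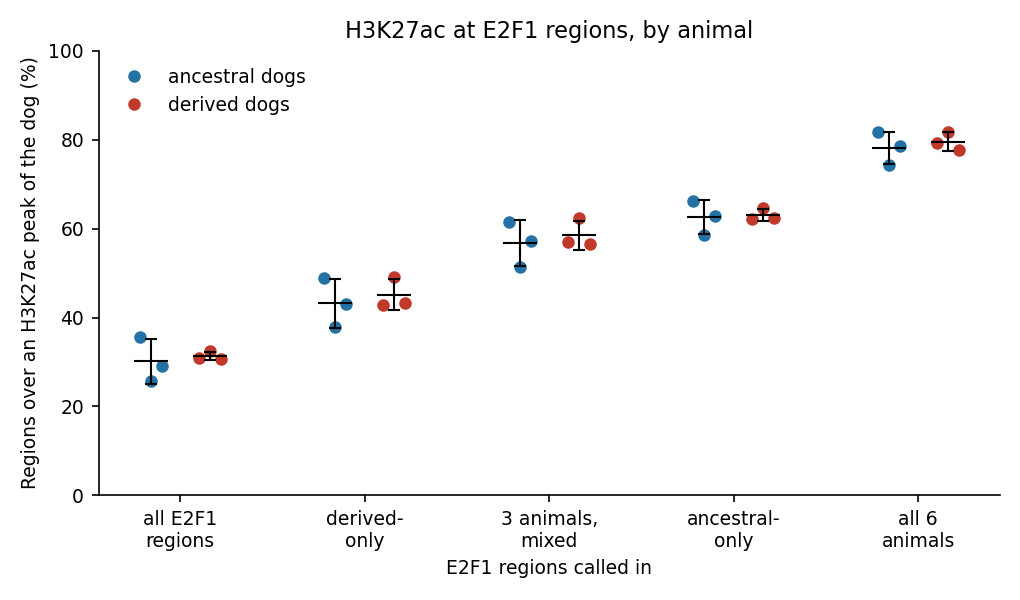
Percent of regions that overlap an H3K27ac peak, 1 point per dog, for 5 kinds of E2F1 region, with horizontal lines at the mean and bars of 1 SD over 3 dogs. Derived-only regions lie between 37.8% and 49.2% with the genotypes overlapping, above all E2F1 regions and below mixed, ancestral-only and recurrent regions in all 6 lists.

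Where all 6 dogs had *H3K27ac* at a derived-only region, its strength was compared as the percentile of the highest overlapping peak in its own list. Over these 263 regions the mean percentile was 84.2, 73.1 and 77.7 for ancestral dogs and 80.3, 80.4 and 81.5 for derived dogs. The means were 78.3 ± 5.56 and 80.8 ± 0.693 (SD, n = 3), which differ by 2.43, less than the SD in the ancestral dogs (two-sided exact permutation p = 0.6). With the regions selected again without ancestral dog 2, the difference was −0.120.

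Derived-only regions with and without the mark also differed in width and position, given here as a description. Other kinds of *E2F1* region were not split in this way, so the differences are not shown to be particular to derived-only regions. A wider region more easily reaches an overlap of 1 base, and the part of width was not tested. The 263 regions with *H3K27ac* in all 6 dogs had a median width of 602 bp, and the 353 with none had 515 bp. The former lay a median of 118419 bases from a recurrent *E2F1* site and the latter 287307 bases, with the 279 regions of 1 to 5 dogs at 193663 bases. The 353 regions without the mark were a median of 1966 bases from the nearest *H3K27ac* peak of any dog, with quartiles of 650 and 7703, and 113 of them were within 1000 bases.

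Distance to the nearest recurrent site had a median of 202643 bases over the derived-only regions (95% confidence interval 168154 to 239804, covering the sampling of regions only), with quartiles of 42831 and 629812. The median was 180479 bases for ancestral-only and 182196 for mixed regions, so derived-only regions lay about as far away as other regions called in 3 dogs. Over all regions that were not recurrent themselves it was 379420 bases. Within 1 kb of a recurrent site were 16 derived-only regions (1.79%), within 10 kb 90 (10.1%), within 100 kb 341 (38.1%) and within 1 Mb 753 (84.1%). For mixed regions these shares were 2.14%, 9.34%, 38.6% and 81.3%, and for all regions that were not recurrent 0.719%, 4.56%, 24.9% and 71.9%.

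**Figure D5:**
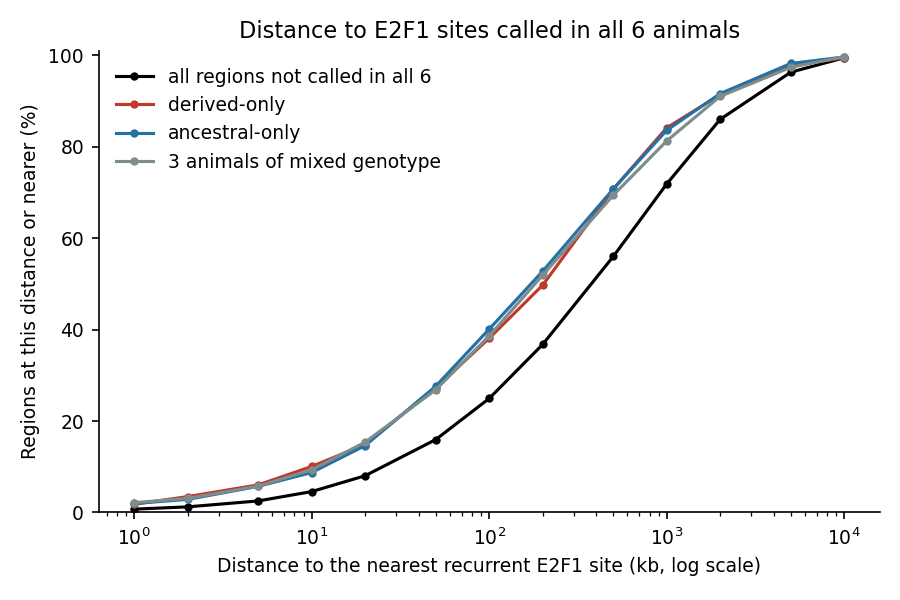
Cumulative share of regions, in percent, against the distance to the nearest E2F1 region called in all 6 dogs, in kb on a log axis, for derived-only, ancestral-only and mixed regions called in 3 dogs and for all regions not called in all 6. The curves of the 3 kinds called in 3 dogs run close together, with 38.1% of derived-only and 38.6% of mixed regions within 100 kb, and lie above that of all regions at 24.9%.

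The regions nearest to a recurrent site sat at its edge. On chromosome 7, the region from 42305760 to 42306231 lay 73 bases before a recurrent site of 1198 bp, with fold enrichments of 2.97, 3.73 and 4.38. On chromosome 6, the region from 165763 to 166108 lay 124 bases before a site of 3203 bp, with fold enrichments of 1.92, 2.2 and 1.94. On chromosome 1, the region from 102281110 to 102281867 lay 128 bases before a site of 1189 bp, with fold enrichments of 4.19, 4.09 and 4.54. In all 3 the nearest ancestral *E2F1* peak was in the recurrent site itself. *H3K27ac* was called in all 6 dogs at the regions on chromosomes 7 and 1 and in no dog at the region on chromosome 6. Among the 10 regions of highest rank, one on chromosome 15 from 4577105 to 4578092 was also close, 265 bases before a recurrent site from 4578358 to 4579748, with an ancestral peak 41 bases away and *H3K27ac* in all 6 dogs.

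No derived-only region was close to the TE that separates the genotypes, which lies on chromosome 6 from 5753797 to 5753983. The nearest, from 5977558 to 5978170, was 223574 bases away, with fold enrichments of 4.52, 2.97 and 3.40 and *H3K27ac* in ancestral dogs 1 and 3 and derived dog 3. The next, from 5981536 to 5981976, was 227552 bases away, with fold enrichments of 4.45, 5.88 and 5.11 and *H3K27ac* in 5 dogs, all but ancestral dog 2. The third, from 6021775 to 6022286, was 267791 bases away, with fold enrichments of 4.38, 6.40 and 3.40, no *H3K27ac* peak and an ancestral *E2F1* peak 113 bases away. Chromosome 6 held 42 derived-only regions in all.

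The count changed with the threshold of the *E2F1* peaks. With q below 0.0005 in every list, the significance threshold of the study's methods, 85 of 181937 regions were derived-only and 215 ancestral-only. The larger side thus changed. Mixed regions numbered 5645 at that threshold, against 17054 with all deposited peaks. Of those 85, 46 (54.1%) overlapped one of the 895, which are 5.14% of the derived-only regions. The other 39 held an ancestral peak with a higher q. When each list was shortened to the same number of peaks, 405 of 381047 regions (0.106%) were derived-only and 641 were ancestral-only. Derived-only regions outnumbered ancestral-only regions with all deposited peaks and did not do so at either stricter selection.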

How the data were processed

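*ChIP-seq* peak lists of 6 dogs, 1 *E2F1* and 1 *H3K27ac* list each, were analysed, with genotypes from the sample labels. The authors extracted unique molecular identifiers, trimmed reads, aligned them with bowtie to CanFam3.1, kept reads that map to several places and dropped duplicates. They ran macs2 on each dog, in narrow mode for *E2F1* and broad mode for *H3K27ac*. The submitters' processing notes name Bowtie 1.1.2, MACS2 2.2.0 and Trim Galore 0.0.6. The study's methods give another bowtie version, and the statement on reads that map to several places comes from those methods. Reads that map to several places make peaks in repeated sequence uncertain in position. The deposited lists hold macs2's score, which was not used, the fold enrichment (a ratio to local background), and −log10 p and −log10 q values. They carry no normalization between dogs, so fold and q describe a peak against its own list, and values printed side by side rank no dog above another. The lowest −log10 q of a region says only how near its weakest peak was to the floor of the lists. Input filtering and spike-in scaling came later and are not in the lists. Depth is that of the supplementary sequencing summary.

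Peaks were merged with Python 3.11.15 (numpy 2.4.6, pandas 2.3.3, scipy 1.17.1, seed 1), with 1-based coordinates. Counting was tested on simulated data of 38146 regions, where 200 of 200 planted derived-only regions were recovered and 208 counted. Planted places were first cleared of other peaks, so this checks the merging and counting and not detection in lists like these. *H3K27ac* shares were compared with exact permutation tests over dogs. Regions and lists were chosen with earlier results of these data known. Named regions are the 10 strongest and 3 weakest by lowest percentile, the 3 widest, the 3 nearest a recurrent site, the 3 nearest the TE, and up to 5 for each *H3K27ac* pattern split by genotype. Sequences, motifs and gene names were not used here, because no CanFam3.1 genome was at hand. Labels name the dogs as biological replicates.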

Additional observations from a re-analysis of the deposited data

How the results depend on the processing

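Of 104 alternative values for 8 results, 62 kept their direction and their side of the threshold, or moved by less than the spread. For comparisons of 3 dogs with 3 no p under 0.1 was possible, so their side of the threshold says nothing about stability. Most of the 62 belong to these comparisons. The number of derived-only regions (895) was 85 at an *E2F1* q below 0.0005, 3 at q below 1e-10, 405 with equal list lengths, 1344 with peaks within 200 bases merged, and 554 where all 3 dogs had to share a base (added after the data were seen). Derived-only minus ancestral-only regions (334) reversed to −130, −23 and −236 under the first 3 of these and was 687 with the 200-base merge. In the same order, the numbers of derived-only regions were 0.0467%, 0.0232%, 0.106%, 0.29% and 0.108% of the regions at each setting, against 0.175%. Leaving out 1 dog, after which the rule needs only 2 dogs on that side, the number ran from 1092 to 7615 and the difference from −3385 to 6910, and the difference was −3385, −2938 and −1453 without ancestral dogs 1 to 3. The number was 1438 (0.327% of the regions) without ancestral dog 3. It was 7615, 4702 and 7390 (1.72%, 1.11% and 1.68%) without derived dogs 1 to 3. The median width (547 bp) was 620 at q below 0.0005, 603 with equal lengths, 699.5 with the 200-base merge and 360 (without derived dog 2) to 572 without 1 dog. The median distance to a recurrent site (202643 bases) was 514938 at q below 0.0005, 162989 with the 200-base merge, 54323 to sites of at least 5 dogs, and ran from 108972 (without derived dog 1) to 368800.5 (without derived dog 2), with 124460.5 without ancestral dog 1.

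With 1 dog left out, the regions were also selected again. The *H3K27ac* difference between genotypes (1.86 points) ran from −0.853 to 4.59 without 1 dog and reversed to −0.853 without ancestral dog 2. Relative to all regions (0.658 points) it ran from 0.175 to 2.37. The *H3K27ac* rank difference (2.43) ran from −0.120, without ancestral dog 2, to 5.19. The difference from mixed regions (−13.5 points) was −33.0 at an *E2F1* q below 0.0005 and ran from −18.1 to −4.47 without 1 dog, where 5 lists cannot give less than 0.0625, and was −8.16 against the 18 mixed sets weighted equally and −0.369, −14.9 and −6.14 against those with derived dogs 1, 2 and 3. The cause of these changes was not tested beyond the values given.

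With dogs paired by replicate number as a block, the share difference of 1.86 points had an exact sign-flip p of 0.75, the difference relative to all regions (0.658) a p of 1.0 and the rank difference (2.43) a p of 0.75, where 3 pairs cannot give less than 0.25. Deviations of same-numbered dogs correlated at −0.115, −0.103 and −0.0132, against −0.000582 to 0.111 for dogs of different number. The labels do not say whether same-numbered dogs were processed together, and these correlations cannot decide it. Peak lists hold no counts, so depth limits what a missing peak can mean.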
